A study of Mus musculus with 10 samples.

Results

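The genes described here are 9 apolipoprotein genes and Mttp, the gene of the lipid transfer protein that loads lipid onto apolipoprotein B, taken by gene name from a liver table of 51911 genes. All 10 were in the table and passed the filter on low counts. Liver RNA of C57BL/6 mice was sequenced in 5 samples with a liver knockout of Cpt1a (label Cpt1a L-/-, called knockout) and 5 of wild type. Mice of both genotypes had eaten a high-fat diet for 8 weeks, so no group on another diet is part of the comparison, and the driver of the knockout, the sex and the age are not given in the labels used here. Cpt1a encodes the enzyme that admits long-chain fatty acids to mitochondrial oxidation, and the comparison addresses how liver transcripts differ without it.

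The liver exports triglyceride in very-low-density lipoprotein, a particle built in the endoplasmic reticulum around a single copy of apolipoprotein B with the help of the microsomal triglyceride transfer protein. High-density lipoprotein, the carrier that returns cholesterol to the liver, is built on apolipoproteins A-I and A-II. The smaller exchangeable apolipoproteins move between particles and set how fast lipoprotein lipase empties them and how fast receptors clear them.

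Cpt1a itself was at 80.0 ± 9.19 CPM in knockout livers and 430.1 ± 85.8 CPM in wild type livers (SD, n = 5 each), and all 10 libraries matched their labels. CPM are counts scaled to a common library size with TMM factors, which correct for composition. Total counts ran from 20599099 to 26955958 per library. The first principal component, with 34.2% of the variance of log2 CPM, put knockout libraries 2, 3 and 5 with wild type libraries 1 and 2, and knockout libraries 1 and 4 with wild type libraries 3, 4 and 5, so this division crosses genotype. Gene length moved with it in part. Genes listed under 1000 bases had a median deviation of 0.41 and 0.51 (log2) from their own means in wild type libraries 1 and 2 and 0.34 in knockout library 2, against -0.26 to 0.06 in the other 7 libraries. Among these 7 were knockout libraries 3 and 5, at -0.07 and 0.06, although they lie on the same side as wild type libraries 1 and 2. Genes of 8000 bases or more were at -0.38 and -0.22 in wild type libraries 1 and 2. This bears on the members, whose listed lengths run from 518 bases (Apoa2) to 13934 bases (Apob). The defining hepatocyte markers, albumin among them, were abundant in every library, with a summed level of 45289.6 to 66779 TPM in knockout and 48841 to 79218 TPM in wild type libraries.

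Several of the genes sit together. Apoa1, Apoc3, Apoa4 and Apoa5 lie within 43340 bases of chromosome 9 (46228580 to 46271919, GRCm38), and Apoc2 and Apoe lie with Apoc1 and Apoc4 within 27610 bases of chromosome 7 (19671579 to 19699188). Apoa2 is on chromosome 1 (171225054 to 171226379), Mttp on chromosome 3 (138089854 to 138144968), Apob on chromosome 12 (7977648 to 8016835) and Apom on chromosome 17 (35128997 to 35132050). RefSeq promoter windows of GRCm38.p6, from 250 bases before to 50 bases after a start, were matched for 9 of the 10 genes (13 windows). The 100 bases before the earliest annotated start are shown for 3 genes of the chromosome 9 cluster, whose levels varied unlike each other, and for Apoa2 and Apob, the shortest and the longest transcript. All 5 are read 5′ to 3′ on the plus strand, and capitals mark matches to the TATA box letters TATAAA or to the forkhead motif TGTTTAC.
Apoa1, chr9:46228480-46228579: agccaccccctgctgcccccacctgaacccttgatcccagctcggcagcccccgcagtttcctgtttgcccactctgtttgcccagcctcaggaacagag
Apoa4, chr9:46240596-46240695: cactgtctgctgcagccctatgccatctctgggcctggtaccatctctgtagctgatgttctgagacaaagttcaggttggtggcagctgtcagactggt
Apoa5, chr9:46268508-46268607: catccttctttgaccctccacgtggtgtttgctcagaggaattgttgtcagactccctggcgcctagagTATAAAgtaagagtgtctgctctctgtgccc
Apoa2, chr1:171224954-171225053: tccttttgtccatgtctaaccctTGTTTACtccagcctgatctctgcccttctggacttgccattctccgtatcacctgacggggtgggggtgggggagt
Apob, chr12:7977548-7977647: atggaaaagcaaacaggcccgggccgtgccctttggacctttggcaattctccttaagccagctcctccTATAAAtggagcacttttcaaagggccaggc

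In Apoa5 and in Apob the TATA match begins 31 bases before the first annotated start. In the whole windows, on either strand, TATAAA was found for Apoa2, Apoa5, Apob and Apoe and in 13.6% of all 32851 windows. TGTTTAC was found for Apoa2 and Apoe and in 3.65% of all windows. The DR1, DR4 and HNF1 motifs, the HNF4-type motif CAAAGTCCA and the CREB3L3-type motif CCACGTTG had no exact match in the members' windows, and each was found in under 0.5% of all windows. Apart from the matches of TATAAA on both strands of 1 Apoe window, no match overlapped another.

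Apolipoprotein transcripts were among the most abundant in these livers. The 10 transcripts together made up 8.50 ± 1.16% of all TPM in knockout and 8.24 ± 1.16% in wild type libraries (SD, n = 5 each), where TPM is a level per transcript length that the authors deposited. In TPM, Apoe came first, with 35140 ± 8044 in knockout and 34803 ± 9446 in wild type livers, rank 2 of all genes by mean TPM. Apoa2 followed at 27415 ± 3757 TPM in knockout and 28761 ± 5862 in wild type livers, and its range met that of Apoe, which was the higher in 7 of 10 libraries. Below them came Apoa1, at 14116 ± 3272 TPM in knockout and 10495 ± 1527 TPM in wild type livers, and Apoc3, at 3685 ± 744.2 TPM in knockout and 4683 ± 1160 TPM in wild type livers, each set apart from its neighbours in all 10 libraries. Apoa5, Apoa4, Apoc2 and Apob formed a block of overlapping ranges, between 262.6 and 2031 TPM, in which neighbours kept their order in 4 to 7 of 10 libraries. Apom, at 196.4 ± 39.9 TPM in knockout and 166.0 ± 31.3 TPM in wild type livers, and Mttp, at 60.3 ± 18.4 TPM in knockout and 64.5 ± 22.4 TPM in wild type livers, were last, in that order in all 10 libraries. The ranks of the 10 transcripts among all genes by mean TPM ran from 2 for Apoe to 1293 for Mttp.

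None of the 10 transcripts passed the test of genotype over all genes. EdgeR's quasi-likelihood test with Benjamini-Hochberg adjustment called 0 of 10 members at an adjusted p under 0.05, against 18 of 13619 genes tested (0.132%). At an unadjusted p under 0.05 it had 1 member, Apoa4, where all genes gave 4.82%. DESeq2, which called 0.636% of all genes, called 0 members, as did limma-voom and limma on log2(TPM + 1). An edgeR fit with replicate number as a block, a pairing that the labels do not state, called 1 member. This was Apoa4 (adjusted p = 0.0481), among 26 genes called in all by that fit. A fold of at least 2 in either direction was seen in 1 member, again Apoa4, and in 1.21% of all genes. Estimates were positive for 5 members and negative for 5, with a median of 0.00 (log2) beside -0.02 over all genes tested. The genotypes overlapped in each of the 10 transcripts, whereas 1.05% of all genes had groups that did not overlap. The 95% intervals reached between 0.27 (Apoa5) and 0.79 (Apoa4) to each side of the estimate on the log2 scale, and differences inside them could not be resolved with these samples. In whole liver, fewer cells of a type and less RNA per cell cannot be told apart.

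**Figure D1:**
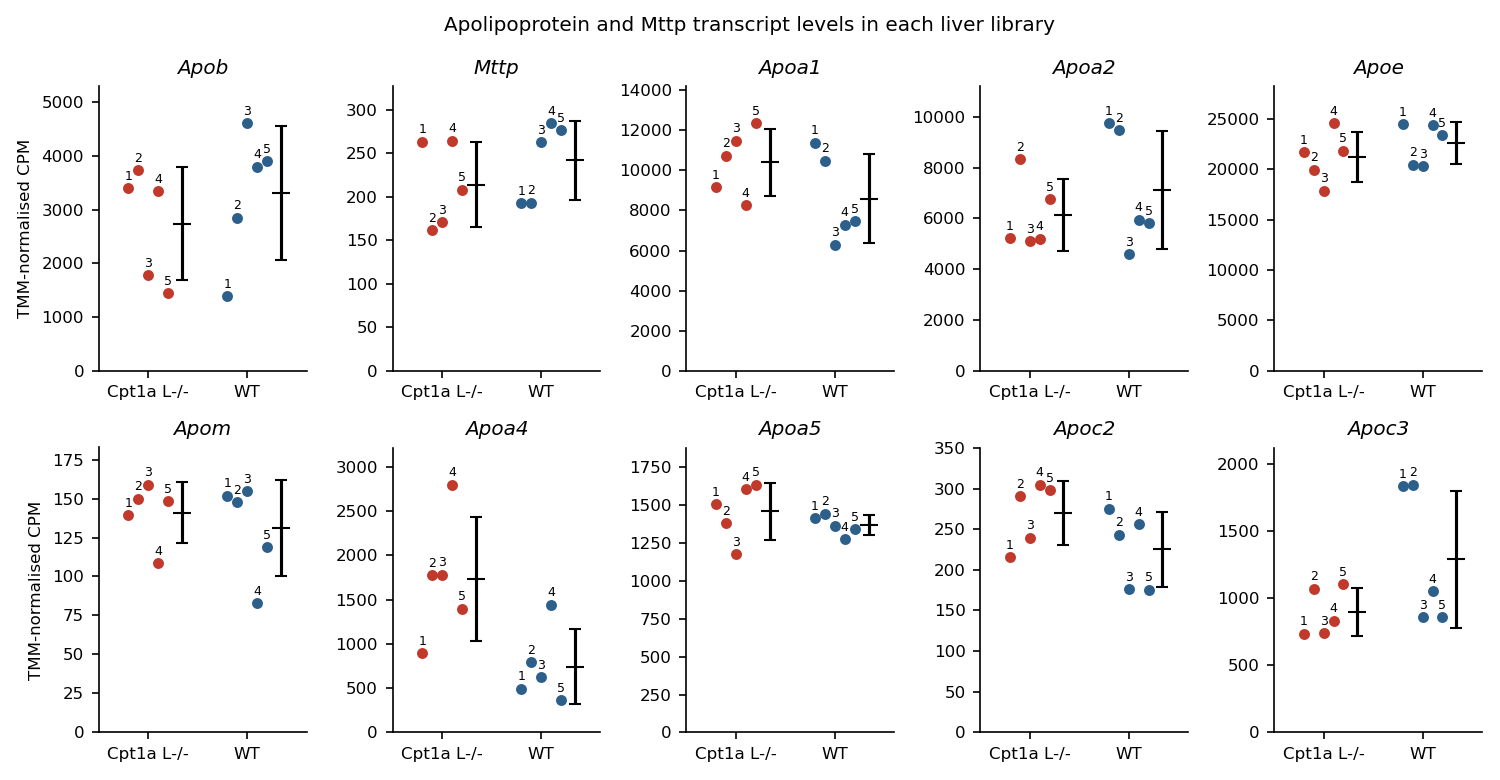
TMM-normalised CPM (vertical axis, from 0) of each transcript in 5 knockout (red, left) and 5 wild type libraries (blue, right), numbered by replicate, with mean ± SD as the black bar. Apoa4 stands highest in knockout library 4 and lowest in wild type library 5, and wild type libraries 1 and 2 stand above all others in Apoc3 and Apoa2.

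Apoa4 had the largest difference of the 10. Apolipoprotein A-IV rides on triglyceride-rich particles and on high-density lipoprotein. Apoa4 was at 894.0, 1774, 1781, 2799 and 1397 CPM in knockout libraries 1 to 5, against 493.5, 796.3, 622.2, 1443 and 361.8 CPM in wild type libraries 1 to 5. The 3 knockout libraries 2, 3 and 4 lay above every wild type library, knockout libraries 1 and 5 lay below wild type library 4, and all 5 knockout libraries lay above the other 4 wild type libraries. The log2 fold change, knockout over wild type, was 1.22 ± 0.37 (SE), a 2.33-fold level with a 95% interval of 1.34 to 4.03, and the edgeR adjusted p was 0.501. The interval is not adjusted for the number of genes tested. The authors' deposited table gives Apoa4 a log2 fold change of 0.58 and a p-value of 0.000634. Their log2 fold change is smaller than the 1.22 that edgeR and DESeq2 both gave here. Their values were also smaller in size than those of edgeR for every other member. Apoc3, for example, has -0.34 in their table, with a deposited p-value of 0.0372, against -0.53 by edgeR. Their mean TPM for Apoa4 was 1162.9 in knockout and 469.5 in wild type livers, and the reason for the smaller values was not tested. Their p-value for Apoa4 is close to the unadjusted p of 0.000523 that DESeq2 gave here, for which the adjusted p was 0.0762. Without wild type library 4 the estimate was 1.605 (adjusted p = 0.114), and without knockout library 4 it was 0.97 (adjusted p = 0.795). Within the 2 sides of the first principal component the mean difference was 1.39 (knockout 2, 3 and 5 against wild type 1 and 2) and 1.20 (knockout 1 and 4 against wild type 3, 4 and 5).

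Apoa4 is also an intestinal gene, and 5 enterocyte markers were read beside it. Of these only Fabp2, which encodes a fatty acid binding protein, was tested (122.4 ± 55.1 CPM in knockout and 91.7 ± 16.5 CPM in wild type livers). The other 4, Vil1, Lct, Si and Alpi, each averaged at most 0.156 CPM in either genotype. The summed level of the 5 ran from 130.0 to 237.4 TPM in knockout and from 101.3 to 178.6 TPM in wild type libraries. Nearly all of this sum was Fabp2, which averaged 173.1 TPM in knockout and 126.9 TPM in wild type livers, so it describes that gene only. Any part of intestinal RNA in the Apoa4 difference was not tested. Genes annotated on the opposite strand over Apoa4 had counts of at most 0.0944% of those of Apoa4.

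The variation of Apoa4 within genotype was also the largest of the 10, with a pooled SD of 0.68 (log2), which 6.82% of tested genes exceeded. The 5 tested genes whose profile over the 10 libraries lay closest to that of Apoa4, by the root mean square difference of mean-centred log2 CPM, were Gal3st1 (0.33), Osbpl3 (0.44), Gpc1 (0.44), Slc35f2 (0.45) and Hhipl2 (0.45), where the spread of Apoa4 around its own mean was 0.89. Gpc1, which encodes the surface proteoglycan glypican 1, was at 67.7 ± 20.9 CPM in knockout and 30.9 ± 9.62 CPM in wild type livers. Osbpl3, which encodes an oxysterol-binding protein relative, was at 24.9 ± 8.33 CPM in knockout and 7.58 ± 4.46 CPM in wild type livers. Their edgeR adjusted p were 0.106 and 0.111, and those of the other 3 lay between 0.0565 and 0.589. Since the 5 were picked for likeness to Apoa4, their differences follow from the choice.

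None of the other exchangeable apolipoproteins of triglyceride-rich particles passed the test, and each of their intervals included 0. Apoc3 encodes an inhibitor of lipolysis and of remnant uptake and lies next to Apoa4. It was at 737.3, 1070, 738.7, 832.4 and 1104 CPM in knockout libraries 1 to 5, against 1837, 1847, 859.7, 1051 and 859.9 CPM in wild type libraries 1 to 5. Wild type libraries 1 and 2 stood above the other 8, among which the genotypes overlapped. This gave a log2 fold change of -0.53 ± 0.25 (SE; 95% interval -1.06 to 0.01, edgeR adjusted p = 1.0). Apoc3 is listed at 709 bases, and short genes were high in wild type libraries 1 and 2 and in knockout library 2. In knockout library 2 Apoc3 was near its mean over the 10 libraries, with a deviation of 0.05 (log2), against 0.83 and 0.84 in wild type libraries 1 and 2. Without wild type libraries 1 and 2 the estimate was -0.04 ± 0.18 (adjusted p = 0.932), and with the short-gene shift of each library as a covariate it was -0.41 ± 0.10 (adjusted p = 0.163). The former fit drops the 2 highest libraries and leaves wild type on a single side of the first principal component, with knockout on both. With the side as a term the estimate was -0.58 ± 0.16 (edgeR adjusted p = 0.225). Mean differences were -0.95 on the side of wild type libraries 1 and 2 and -0.23 on the other side.

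Apoc2 encodes the activator that lipoprotein lipase needs. It was at 215.7, 290.9, 239.5, 304.8 and 298.2 CPM in knockout libraries 1 to 5, against 275.1, 243.3, 176.2, 255.9 and 175.7 CPM in wild type libraries 1 to 5. Knockout libraries 2, 4 and 5 lay above all wild type libraries and knockout libraries 1 and 3 within their range. Its log2 fold change was 0.26 ± 0.16 (95% interval -0.08 to 0.61, adjusted p = 1.0). The gene Gm44805 overlaps Apoc2 on the same strand and held up to 12.8% as many counts as Apoc2, so the Apoc2 value is less certain. Apoa5, whose protein promotes lipolysis at the vessel wall, was the steadiest of the 10 by counts. It ran from 1175 to 1635 CPM in knockout and from 1273 to 1445 CPM in wild type libraries, with a log2 fold change of 0.10 ± 0.12 (95% interval -0.17 to 0.36, adjusted p = 1.0). Its pooled SD within genotype was 0.15 (log2), and 90.1% of tested genes had a larger one.

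The ratio of Apoa4 to Apoc3 TPM is given as a description, since this pair was chosen for its opposite estimates after the values were seen. It was 0.201, 0.266, 0.382, 0.545 and 0.197 in knockout libraries 1 to 5, against 0.044, 0.068, 0.120, 0.222 and 0.070 in wild type libraries 1 to 5. It averaged 0.318 ± 0.147 in knockout and 0.105 ± 0.071 in wild type livers (SD, n = 5 each), and only wild type library 4 lay within the knockout range. Zpr1, Bud13, Sik3, Pafah1b2, Sidt2, Pcsk7 and Tagln, which flank the chromosome 9 cluster, had 0 of 7 called and a median log2 fold change of -0.03.

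**Figure D2:**
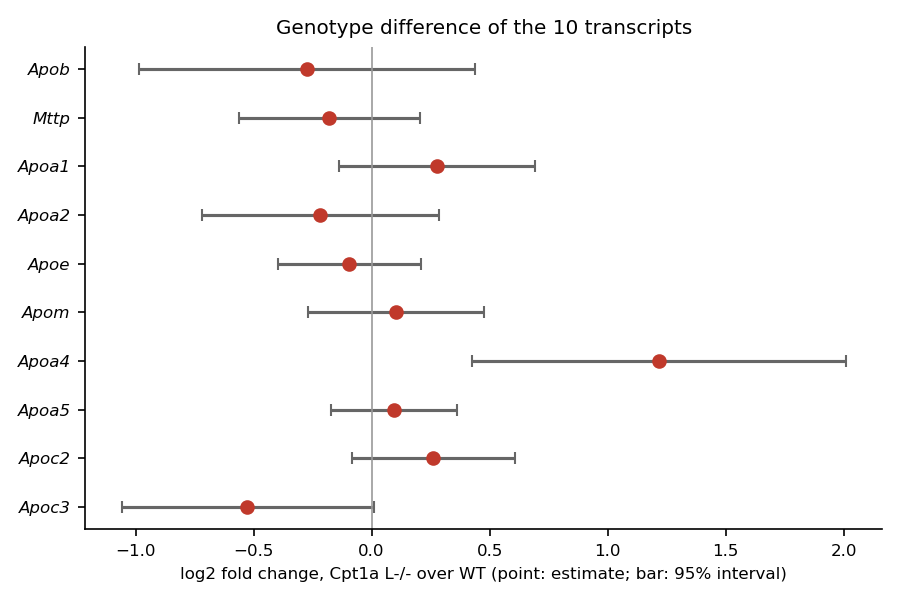
Log2 fold change of each transcript, knockout over wild type (horizontal axis), with its 95% interval from edgeR, ordered by role from particle core to exchangeable apolipoproteins. The interval of Apoa4 (0.43 to 2.01) lies to the right of 0, the other 9 include 0, and no adjusted p was under 0.05.

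The genes of particle assembly differed in how far they varied. Apob encodes the structural protein of very-low-density lipoprotein. It was at 3406, 3732, 1778, 3340 and 1445 CPM in knockout libraries 1 to 5, against 1392, 2852, 4612, 3799 and 3900 CPM in wild type libraries 1 to 5. Knockout libraries 3 and 5 and wild type library 1 were low, at less than the level of the other 7, so each genotype held low and high libraries. Its log2 fold change was -0.27 ± 0.33 (95% interval -0.98 to 0.44, adjusted p = 1.0), and without wild type libraries 1 and 2 it was -0.58 ± 0.29 (adjusted p = 0.388). The latter fit has wild type libraries on a single side of the first principal component and knockout libraries on both. With the side as a term the estimate was -0.08 ± 0.28 (edgeR adjusted p = 0.974). Mean differences were 0.09 on the side of wild type libraries 1 and 2 and -0.28 on the other side. Within genotype Apob had a pooled SD of 0.66 (log2), which 7.82% of tested genes exceeded. The median of genes of 8000 bases or more was at 0.05 and -0.07 in knockout libraries 3 and 5 and -0.38 in wild type library 1, while Apob was at -0.66, -0.96 and -1.01 there.

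Mttp, whose protein forms a heterodimer with protein disulfide isomerase, was at 263.6, 161.9, 171.0, 264.5 and 208.3 CPM in knockout libraries 1 to 5, against 193.1, 193.2, 263.1, 284.7 and 276.8 CPM in wild type libraries 1 to 5. The lower level was shared by knockout libraries 2, 3 and 5 and wild type libraries 1 and 2, the same 5 that the first principal component placed on 1 side. Its estimate was a log2 fold change of -0.18 ± 0.18 (95% interval -0.56 to 0.20, adjusted p = 1.0), and within the 2 sides the mean differences were -0.11 (knockout 2, 3 and 5 against wild type 1 and 2) and -0.06 (knockout 1 and 4 against wild type 3, 4 and 5). P4hb, the gene of the disulfide isomerase subunit, was at 1258.5 ± 168.1 CPM in knockout and 1423 ± 73.1 CPM in wild type livers (log2 fold change -0.18 ± 0.12, adjusted p = 1.0).

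The wider list of very-low-density lipoprotein assembly genes, 17 with P4hb, had 0 called, 3 positive and 14 negative estimates and a median log2 fold change of -0.10, beside -0.02 and 44.7% positive over all genes. The smallest p in it belonged to Tm6sf2, whose protein is needed to lipidate these particles. Tm6sf2 ran from 9.70 to 12.9 CPM in knockout and from 12.1 to 16.5 CPM in wild type libraries, a log2 fold change of -0.30 ± 0.13 (adjusted p = 1.0). Tmem41b, which encodes a lipid scramblase of the endoplasmic reticulum, was at 18.3 ± 2.04 CPM in knockout and 20.3 ± 2.94 CPM in wild type livers. Apobec1 encodes the enzyme that edits the Apob transcript so that the short form of apolipoprotein B is made, and A1cf an RNA-binding partner of it. Both were singled out after their values were seen. Apobec1 was at 17.0 ± 2.19 CPM in knockout and 18.3 ± 1.497 CPM in wild type livers, and A1cf at 138.8 ± 26.3 CPM in knockout and 139.3 ± 47.5 CPM in wild type livers. Editing itself is not measured by these counts.

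The 2 main proteins of high-density lipoprotein had estimates of opposite sign. Apoa1 was at 9170, 10732, 11478, 8263 and 12354 CPM in knockout libraries 1 to 5, against 11383, 10488, 6296, 7300 and 7468 CPM in wild type libraries 1 to 5. Wild type libraries 1 and 2 lay inside the knockout range and wild type libraries 3, 4 and 5 below it. Its estimate was a log2 fold change of 0.28 ± 0.19 (95% interval -0.14 to 0.69, adjusted p = 1.0), and without wild type libraries 1 and 2 it was 0.57 ± 0.18 (adjusted p = 0.295). The latter fit has wild type libraries on a single side of the first principal component and knockout libraries on both. With the side as a term the Apoa1 estimate was 0.19 ± 0.11 (edgeR adjusted p = 0.73). Mean differences were 0.07 on the side of wild type libraries 1 and 2 and 0.31 on the other side. Apoa2 was at 5217, 8329, 5114, 5199 and 6751 CPM in knockout libraries 1 to 5, against 9744, 9464, 4597, 5952 and 5817 CPM in wild type libraries 1 to 5. As in Apoc3, wild type libraries 1 and 2 were the 2 highest, here followed by knockout library 2, the third library in which short genes were high. The log2 fold change of Apoa2 was -0.22 ± 0.23 (95% interval -0.72 to 0.28, adjusted p = 1.0), and it was 0.17 ± 0.20 without wild type libraries 1 and 2. With the side of the first principal component as a term it was -0.29 ± 0.15 (edgeR adjusted p = 0.692). Mean differences of Apoa2 were -0.54 on the side of wild type libraries 1 and 2 and -0.06 on the other side.

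Apom, a lipocalin of high-density lipoprotein that carries sphingosine-1-phosphate, ran from 108.5 to 158.9 CPM in knockout and from 83.0 to 154.8 CPM in wild type libraries. Wild type library 4 was the lowest and knockout library 4 the next lowest, and the log2 fold change was 0.10 ± 0.17 with all libraries and -0.02 ± 0.14 without wild type library 4 (adjusted p = 1.0 in both). Apoe, the ligand by which remnants bind hepatic receptors, had a narrow range. It was at 21676, 19945, 17869, 24569 and 21826 CPM in knockout libraries 1 to 5, against 24455, 20441, 20322, 24368 and 23390 CPM in wild type libraries 1 to 5. The log2 fold change was -0.09 ± 0.14 with a 95% interval from -0.40 to 0.21, that is, a knockout level between 0.76 and 1.16 times that of wild type (adjusted p = 1.0). Macrophages also make Apoe, and the summed level of 11 Kupffer cell and macrophage markers was 365.2 to 591.1 TPM in knockout and 419.6 to 564.0 TPM in wild type libraries, with 0 of 11 called.

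**Figure D3:**
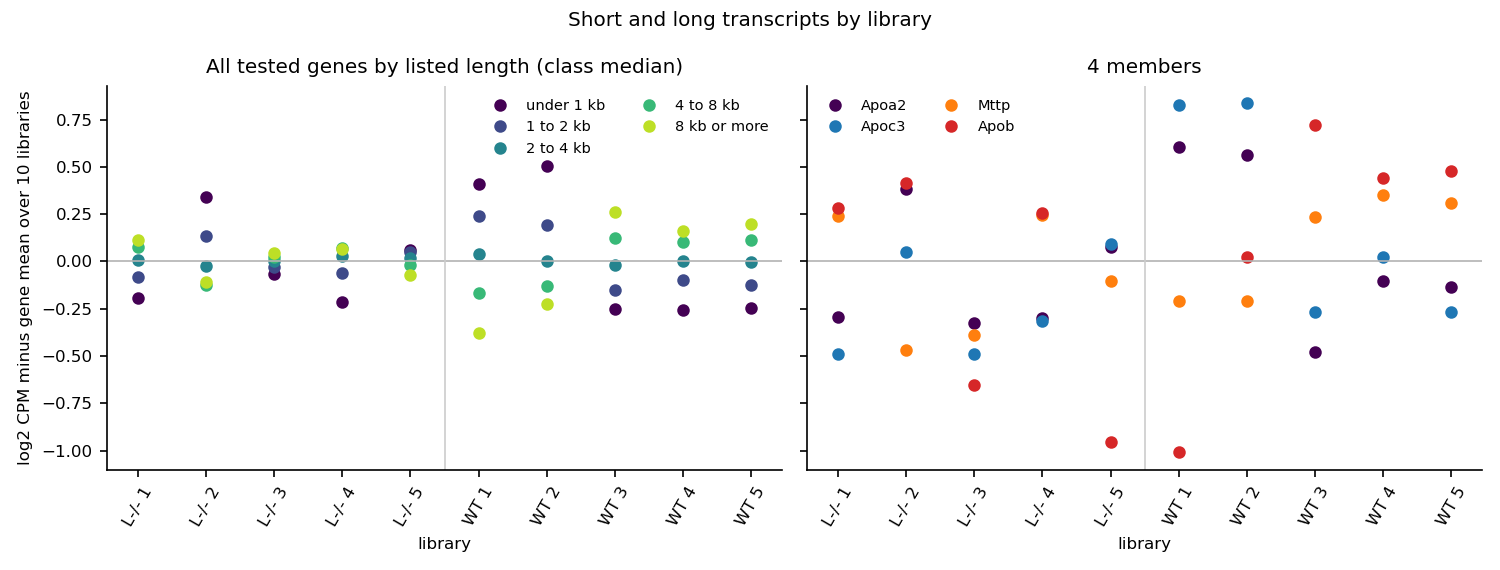
Deviation of log2 CPM from its mean over the 10 libraries (vertical axis) in each knockout (left of the line in each panel) and wild type library. The left panel gives the median of genes by listed length, and the right panel Apoa2 (518 bases), Apoc3 (709), Mttp (3963) and Apob (13934); in wild type libraries 1 and 2 short genes, Apoa2 and Apoc3 are high and long genes low.

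For 2 of the members the deposited count and TPM did not move together. Dividing the count by the TPM, with each library scaled so that the median gene sits at its listed length, gives an implied length. It is a relative value for comparing libraries, not a measured transcript length. Apoa2 was at 285 to 307 bases against a listed 518, and Mttp at 4819 to 4886 against a listed 3963. Apob was at 3703 to 7076 against a listed 13934, and Apoc3 at 315 to 337 against a listed 709. The implied length varied 1.91-fold over libraries for Apob and 1.93-fold for Apoa5. The median over genes with at least 500 counts in every library was 1.07-fold, and 1.55% and 1.43% of these genes varied more. Apob was at 6266, 4481, 5745, 6396 and 5381 bases in knockout libraries 1 to 5 and at 3922, 3703, 7076, 6322 and 6624 bases in wild type libraries 1 to 5. The shortest values were in wild type libraries 1 and 2 and knockout library 2, the 3 libraries in which short genes were high. Apoa5 went the other way in the same 3 libraries, with 2093 and 2408 bases in wild type libraries 1 and 2 and 2167 bases in knockout library 2, against 1247 to 1536 bases in the other 7.

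Apoa5 also differed between its 2 units. In TPM it was at 1543, 638.3, 1176, 1708 and 1530 in knockout libraries 1 to 5, against 738.0, 580.5, 1345, 1394 and 1584 in wild type libraries 1 to 5, so that knockout library 2 and wild type libraries 1 and 2 stood well below the rest. In CPM the same 3 libraries, at 1380, 1412 and 1445, lay inside the range of the others. TPM was low beside CPM in these 3 libraries for Apoa1 too, whose implied length was steady. Apoa1 was at 10732 CPM and 10718.5 TPM in knockout library 2, against 9170 CPM and 12418 TPM in knockout library 1. The 2 units thus also differ in how libraries are scaled, and the gap in Apoa5 TPM is not all particular to Apoa5. The log2 fold change of Apoa5 on log2(TPM + 1) was 0.25 ± 0.32, against 0.10 ± 0.12 in the count test. Apoe, with an implied length between 785 and 897 bases, changed the sign of its estimate on that scale (0.03 ± 0.32). The estimate of every member was higher on that scale than in the count test, so the shift was not particular to Apoe. Apoa1, for example, was at 0.41 against 0.28, and Apom at 0.24 against 0.10. The implied lengths of the 7 members other than Apob, Apoa5 and Apoe varied by at most 1.08-fold, among them Apoa4 at 2014 to 2042 bases. The order of libraries for Apoa4 was not the same in both units. In TPM Apoa4 was at 599.1, 870.7, 1346, 2031 and 967.5 in knockout libraries 1 to 5, against 265.0, 379.4, 400.6, 1040 and 262.6 in wild type libraries 1 to 5. Only knockout libraries 3 and 4 were then above wild type library 4, where in CPM knockout library 2 was above it too, and all 5 were above the other 4 wild type libraries in both units.

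**Figure D4:**
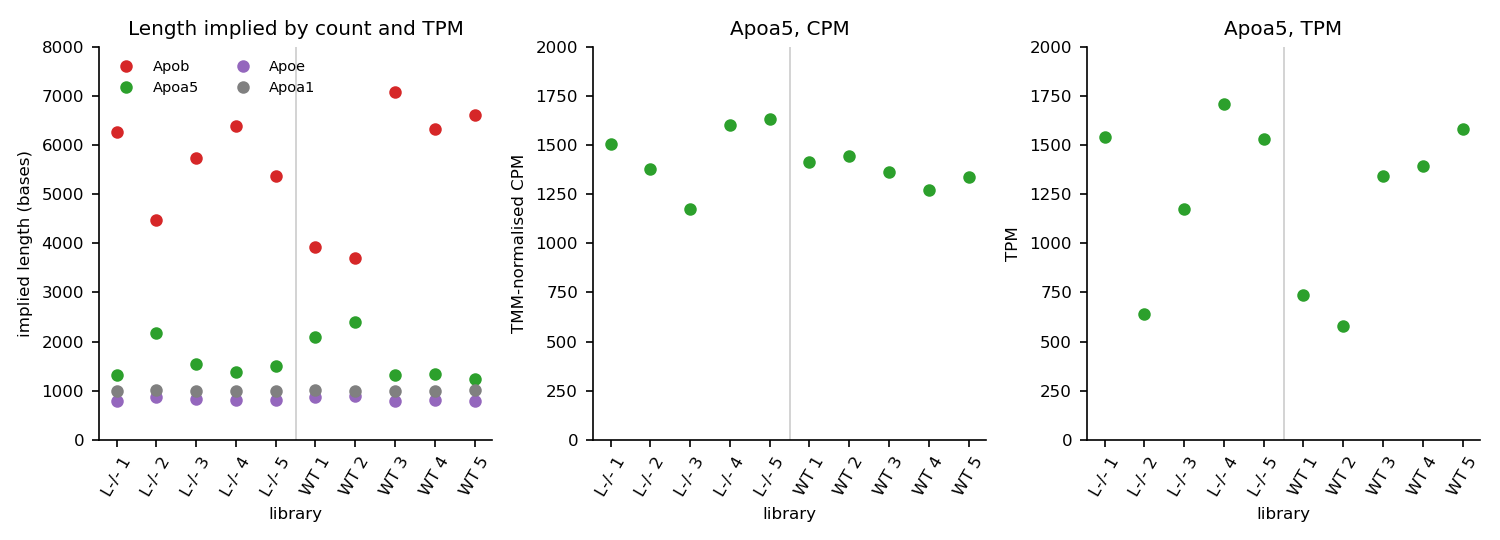
Length implied by the deposited count and TPM for Apob, Apoa5, Apoe and Apoa1 (left, bases), and Apoa5 as CPM (middle) and as TPM (right), for each knockout (left of the line) and wild type library. In knockout library 2 and wild type libraries 1 and 2 the implied length is 2093 to 2408 bases for Apoa5 and its TPM is 580.5 to 738.0, while its CPM is 1380 to 1445.

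The remaining genes of the pathway gave no call either. Over the 7 lists of related genes, 92 of 93 genes were tested, 0 passed by edgeR over all genes and 3 had an unadjusted p under 0.05 (4.82% over all genes). DESeq2 called 0 as well. Of 10 other apolipoprotein and serum amyloid A genes, 9 were tested and all 9 estimates were negative, with a median of -0.19 (log2), where 44.7% of all genes were positive. Estimates were also negative for 8 of 8 hepatocyte markers (median -0.24), 8 of 8 stellate cell markers (median -0.21) and 6 of 6 endothelial markers (median -0.08), with 0 called in each list. Other cell types were mixed. Kupffer cell and macrophage markers had 3 positive and 8 negative estimates (median -0.02), and cholangiocyte markers 1 positive and 4 negative (median -0.58), again with 0 called. Saa2, an acute phase protein of high-density lipoprotein, was at 331.0, 229.2, 61.9, 81.2 and 134.8 CPM in knockout libraries 1 to 5, against 303.0, 2203, 1454, 106.1 and 103.5 CPM in wild type libraries 1 to 5. Wild type libraries 2 and 3 were far above the other 8 (log2 fold change -2.32 ± 0.82, adjusted p = 0.768; -1.55 without wild type library 2), and the other 3 wild type libraries lay within the knockout range. Saa2 and Saa1 (-1.47 ± 0.75, and -0.77 without wild type library 2) are near copies between which reads can be split, while Saa4 was at -0.33 ± 0.16 (adjusted p = 1.0 for both). Apoc1, a neighbour of Apoe, was at 1833 ± 370.3 CPM in knockout and 2400 ± 851.7 CPM in wild type livers, and was chosen after its values were seen.

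Genes that remodel lipoproteins in plasma had 0 of 13 called, 11 of them negative, with a median log2 fold change of -0.16. Pltp, which transfers phospholipid onto high-density lipoprotein, ran from 24.1 to 39.9 CPM in knockout and from 34.7 to 52.9 CPM in wild type libraries (log2 fold change -0.44 ± 0.15, adjusted p = 0.721). Only knockout library 4 reached the wild type range. Angptl8, which encodes an inhibitor of lipoprotein lipase, was at 14.9 ± 3.47 CPM in knockout and 21.8 ± 8.52 CPM in wild type livers, and Lpl at 12.2 ± 4.53 CPM in knockout and 15.8 ± 4.16 CPM in wild type livers. Receptors and sterol exporters had 0 of 14 called and a median of -0.08, with Abcg5, a sterol exporter into bile, at 0.13 ± 0.12, the proteoglycan gene Sdc1 at -0.13 ± 0.13 and Vldlr at -0.36 ± 0.39. The 5 genes that flank the chromosome 7 cluster had 0 called and a median of -0.02, with Nectin2 at 0.16 ± 0.16, Relb at -0.25 ± 0.27 and Tomm40 at 0.08 ± 0.10.

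Transcription regulators known to act on apolipoprotein genes gave no call. Of 27 such genes 0 were called, 13 estimates were positive and 14 negative, with a median log2 fold change of -0.005. The smallest p belonged to Cebpa (417.8 ± 63.5 CPM in knockout and 353.3 ± 58.6 CPM in wild type livers), followed by the bile acid receptor gene Nr1h4 (-0.16 ± 0.12) and Nr5a2 (-0.20 ± 0.17). Creb3l3 and Hnf4a, known regulators of Apoa4 and Apoc3, were singled out after their values were seen. Creb3l3 was at 313.7 ± 34.3 CPM in knockout and 322.5 ± 14.5 CPM in wild type livers (-0.04 ± 0.11), and Hnf4a at 503.6 ± 75.0 CPM in knockout and 531.3 ± 49.99 CPM in wild type livers (-0.08 ± 0.13; SD, n = 5 each).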

How the data were processed

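RNA of 10 liver samples, 5 Cpt1a L-/- and 5 wild type, was compared, with groups and replicate numbers from the sample titles; the table names wild type libraries CON, matched to titles by number. The labels do not say that each sample is its own animal, so p-values measure the spread between samples. Per the submitters' processing notes, fastp, HISAT and RSEM were used on GRCm38.p5; no label used here states versions, settings or strand. The authors deposited, per gene and library, an expected count, 7.68% of them not whole and rounded here, and TPM values, with a gene length and their own log2 fold change and p-value. Rows without a gene (5) were left out, and 26 of 27 symbols that had turned into dates were restored.

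Genes were filtered with filterByExpr (13619 of 51911 left), scaled by TMM and tested with edgeR 4.0.16 in R 4.3.3 (quasi-likelihood, robust, genotype as the only term), with a Benjamini-Hochberg adjusted p under 0.05 over all genes as the threshold. Standard errors and 95% intervals come from the fit. The fit was checked on simulated counts. Log2 CPM used a prior count of 2. At these depths 3 counts are 0.111 to 0.146 CPM, which covers counting error only. Every pair of libraries differed by more than sampling noise (lowest chi-square over its degrees of freedom 30.1). Positions come from GENCODE M21, motifs were matched exactly on both strands, and implied lengths use genes with at least 500 counts in every library. Named genes were the members, Cpt1a, up to 3 genes per list with the smallest p, and the 5 genes closest to the member with the largest within-genotype SD; others are marked where they occur. The members and lists were chosen with earlier results of these data known. Alternatives were other scalings, filters, DESeq2 1.42.0, limma 3.58.1, a replicate block and leaving out single libraries. Added after seeing the data were 3 fits prompted by the division of libraries. Among these, the fit without wild type libraries 1 and 2 has wild type on a single side of the division and knockout on both.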

Additional observations from a re-analysis of the deposited data

Results flagged for a closer look

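In the knockout group Abcg5 was at 100.5 CPM in library 5, far below the other 4 libraries, the nearest of which was at 122.7 CPM. On the log2 CPM scale the gap took 0.868 of the group's whole range, above Dixon's critical value of 0.71 for 5 samples. On that scale it was the only such library among 62 groups examined, the 2 genotypes of each member and each named list gene, and chance gives about 1 in 20. On the log2 scale none of the 10 members had a library that far from its group.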

How the results depend on the processing

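Of 230 member values under 23 alternatives, 227 kept the direction of the main estimate. The 3 that did not were Apoa2 without wild type libraries 1 and 2 (0.17), Apoe on log2(TPM + 1) (0.026) and Apom with 1 library left out (range -0.023 to 0.184); among the related genes Vldlr changed sign likewise (range -0.61 to 0.032). The number of members called stayed at 0 except in the fit with the replicate number as a block, which called 1, Apoa4 (log2 fold change 1.29, adjusted p = 0.0481; 0.0762 by DESeq2; up to 1.0 over all alternatives). The block called 26 genes in all. The labels do not say that replicate numbers pair the samples. Correlations of same-numbered deviations ran from -0.41 to 0.43, 2 of 5 were over 0.1, and 2 of 5 knockout libraries correlated best with their own number. With so few pairs and a division of libraries that crosses genotype, these correlations cannot decide whether the samples are paired. Calls over all genes were 18 in the main fit, 101 by DESeq2, 11 on log2(TPM + 1), 36 with the side of the first principal component as a term, 29 with the short-gene shift as a covariate, 10 without wild type libraries 1 and 2 and 6 to 21 with 1 library left out; the cause was not tested. Genes of the related lists stayed at 0 called in all 23.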
